A study of Mus musculus with 5 samples.

Results

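The genes described here are 8 regulators of the primitive endoderm, the layer of the mouse blastocyst that lines the cavity beneath the epiblast and goes on to form the yolk sac endoderm. They are the transcription factor genes Gata6, Gata4, Sox17, Sox7, Foxa2 and Hnf4a, the receptor gene Pdgfra and the adaptor gene Dab2, chosen by name from the protein-coding genes of RefSeq (8 of 21887). Every peak of V5-tagged KLF5 whose summit lay inside one of these genes or within 50 kb of its ends was taken, which gave 40 of the 45366 peaks on assembled chromosomes. No peak was counted for more than 1 of the genes.

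KLF5, a Krüppel-like factor with zinc fingers, binds GC-rich and CACCC-type DNA. Chromatin immunoprecipitation with sequencing (ChIP-seq) was used to find where it sits on the genome. The series has 5 libraries, each the only one of its group. The V5 immunoprecipitate, which holds the 40 peaks, came from wild-type embryonic stem (ES) cells of C57B6/J origin that overexpressed V5-KLF5. A precipitate with normal mouse IgG and an input DNA library came from the same cells. An anti-V5 precipitate and an input library came from wild-type ES-D3 cells, an established mouse ES line with no tagged protein. How far the tagged protein exceeded the cells' own KLF5, what drove it, and whether the cells were 1 clone are not given in the sources used here. The file header of the ES-D3 peak list names another line, JM8.N4, so the identity of that control is uncertain.

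In the blastocyst the inner cells resolve into epiblast and primitive endoderm. FGF4 secreted by the future epiblast acts through FGF receptors and the ERK pathway to sustain GATA6 and silence NANOG in the future primitive endoderm. GATA6 is the earliest of these factors and is required for the lineage. PDGFRA, SOX17, GATA4 and SOX7 are known to appear after it, and DAB2 is needed to organise the layer as an epithelium. FOXA2 and HNF4A belong to the maturing visceral endoderm. ES cells resemble the epiblast and normally express little of most of these genes. The deposited data locate KLF5 and hold no expression, so whether any of the genes was transcribed in these cells was not measured.

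After removal of duplicates the V5-KLF5 library kept 23170814 tags. The IgG library of the same cells kept 24534728 and the V5 library of ES-D3 cells 21847578. The windows of all 8 genes held 0 peaks of the IgG list, which has 3 peaks in all, each on chromosome 17. They also held 0 peaks of the ES-D3 list, which is empty. Weaker control signal that was never called as a peak was not analysed here. Each peak carries 2 values from the authors' peak caller. The pileup is the number of extended tags that cover the summit. The fold enrichment is the ratio of (pileup + 1) to (input background + 1). With 1 library per group there is no replicate error, so no test was made. Intervals are exact Poisson intervals at 95% on the pileup, with the input background held fixed. They cover counting error only.

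For 4 of the 8 genes RefSeq start sites and promoter sequences of GRCm38.p6 (mm10) were used: Foxa2 (3 starts), Hnf4a (2), Dab2 (2) and Pdgfra (1). Gata6, Gata4, Sox17 and Sox7 had no entry. Each promoter runs from 250 bases before the start to 50 after it. The sequences below belong to the start that a KLF5 peak covered, to the other start of the same gene, to the start nearest to the Foxa2 peak, and to the Pdgfra start, which had peaks on both sides. They read 5′ to 3′ on the strand of the gene. Capitals mark matches, on either strand, to CCNCNCCC (N is any base), a loose form of the Krüppel-like motif, or to CACCC. The 2 patterns can overlap, and a run of 8 G or C also matches the first.
Dab2 inner start, chr15:6386498-6386797, plus strand: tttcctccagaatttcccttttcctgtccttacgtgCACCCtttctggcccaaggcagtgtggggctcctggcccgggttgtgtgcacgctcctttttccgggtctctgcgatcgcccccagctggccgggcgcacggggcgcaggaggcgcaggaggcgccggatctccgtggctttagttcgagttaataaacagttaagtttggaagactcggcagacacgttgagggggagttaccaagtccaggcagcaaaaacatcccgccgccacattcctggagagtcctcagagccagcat
Dab2 outer start, chr15:6299539-6299838, plus strand: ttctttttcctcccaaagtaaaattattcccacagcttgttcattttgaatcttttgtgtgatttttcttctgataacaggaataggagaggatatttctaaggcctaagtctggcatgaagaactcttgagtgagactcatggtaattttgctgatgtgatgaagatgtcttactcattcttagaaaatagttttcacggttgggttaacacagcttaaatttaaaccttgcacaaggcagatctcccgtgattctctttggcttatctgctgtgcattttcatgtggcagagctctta
Foxa2 outermost start, chr2:148046920-148047219, minus strand: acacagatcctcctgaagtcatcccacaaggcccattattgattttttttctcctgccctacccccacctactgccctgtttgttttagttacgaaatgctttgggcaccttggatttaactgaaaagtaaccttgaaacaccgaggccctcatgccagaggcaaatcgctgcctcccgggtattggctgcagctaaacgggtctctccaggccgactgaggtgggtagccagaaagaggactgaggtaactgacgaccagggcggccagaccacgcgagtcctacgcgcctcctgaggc
Pdgfra start, chr5:75152001-75152300, plus strand: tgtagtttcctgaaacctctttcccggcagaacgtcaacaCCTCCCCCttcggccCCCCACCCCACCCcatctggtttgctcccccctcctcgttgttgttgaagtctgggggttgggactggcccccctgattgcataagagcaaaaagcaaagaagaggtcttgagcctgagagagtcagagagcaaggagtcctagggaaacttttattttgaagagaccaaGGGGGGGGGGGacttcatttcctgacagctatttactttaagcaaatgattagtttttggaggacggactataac

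Among all 32851 RefSeq promoters of this length, 49.5% held CCNCNCCC and 57.5% held CACCC on either strand. The promoter of the inner Dab2 start, 292 bases of which lay under a peak, had 0 matches to the first pattern and 1 to CACCC, 165 bases from the summit. That of the outer Dab2 start had neither pattern. The outermost Foxa2 promoter, 36 bases from a peak, also had neither. The promoters of the other Foxa2 starts, 263 and 747 bases from the same peak, held 5 and 3 matches to CCNCNCCC, and each held 2 to CACCC. Hnf4a, whose nearest peaks were 6165 and 19553 bases from its outer and inner promoters, had 1 match to CCNCNCCC and 3 to CACCC at its outer start, and 5 to each pattern at its inner one. Pdgfra had 7 matches to CCNCNCCC and 2 to CACCC, and its nearest peak began 1740 bases away. Matches were counted at every position, so a single run of G counted several times at the Pdgfra start and at the inner Hnf4a start. At Pdgfra, 2 of the CCNCNCCC matches also overlapped CACCC. The same held for 3 matches at each Foxa2 start other than the outermost, and for 1 at the outer Hnf4a start. These counts are therefore not numbers of separate sites. The start under a peak thus had fewer matches than the Pdgfra start, which no peak covered. A match is only a match of letters, and the absence of one says nothing about binding.

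All 8 genes had at least 1 V5-KLF5 summit in the 50 kb window, where 81.1% of all protein-coding genes had one. Their counts ran from 2 at Gata6 and Dab2 to 14 at Hnf4a, with a median of 4, and the median over all protein-coding genes was also 4. The strongest peak per gene was of modest height. Its median fold enrichment was 6.95 over the 8 genes, against 10.0 over the 17745 protein-coding genes with a peak (quartiles 7.08 and 13.9). A strong peak enters these medians once for every gene whose window holds it. When each peak counted only for its nearest protein-coding gene, the medians were closer, 6.08 and 7.19. Only Sox7 and Hnf4a, 2 of the 8, had a peak with a fold enrichment of at least 10, which 40.9% of all protein-coding genes had.

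**Figure D1:**
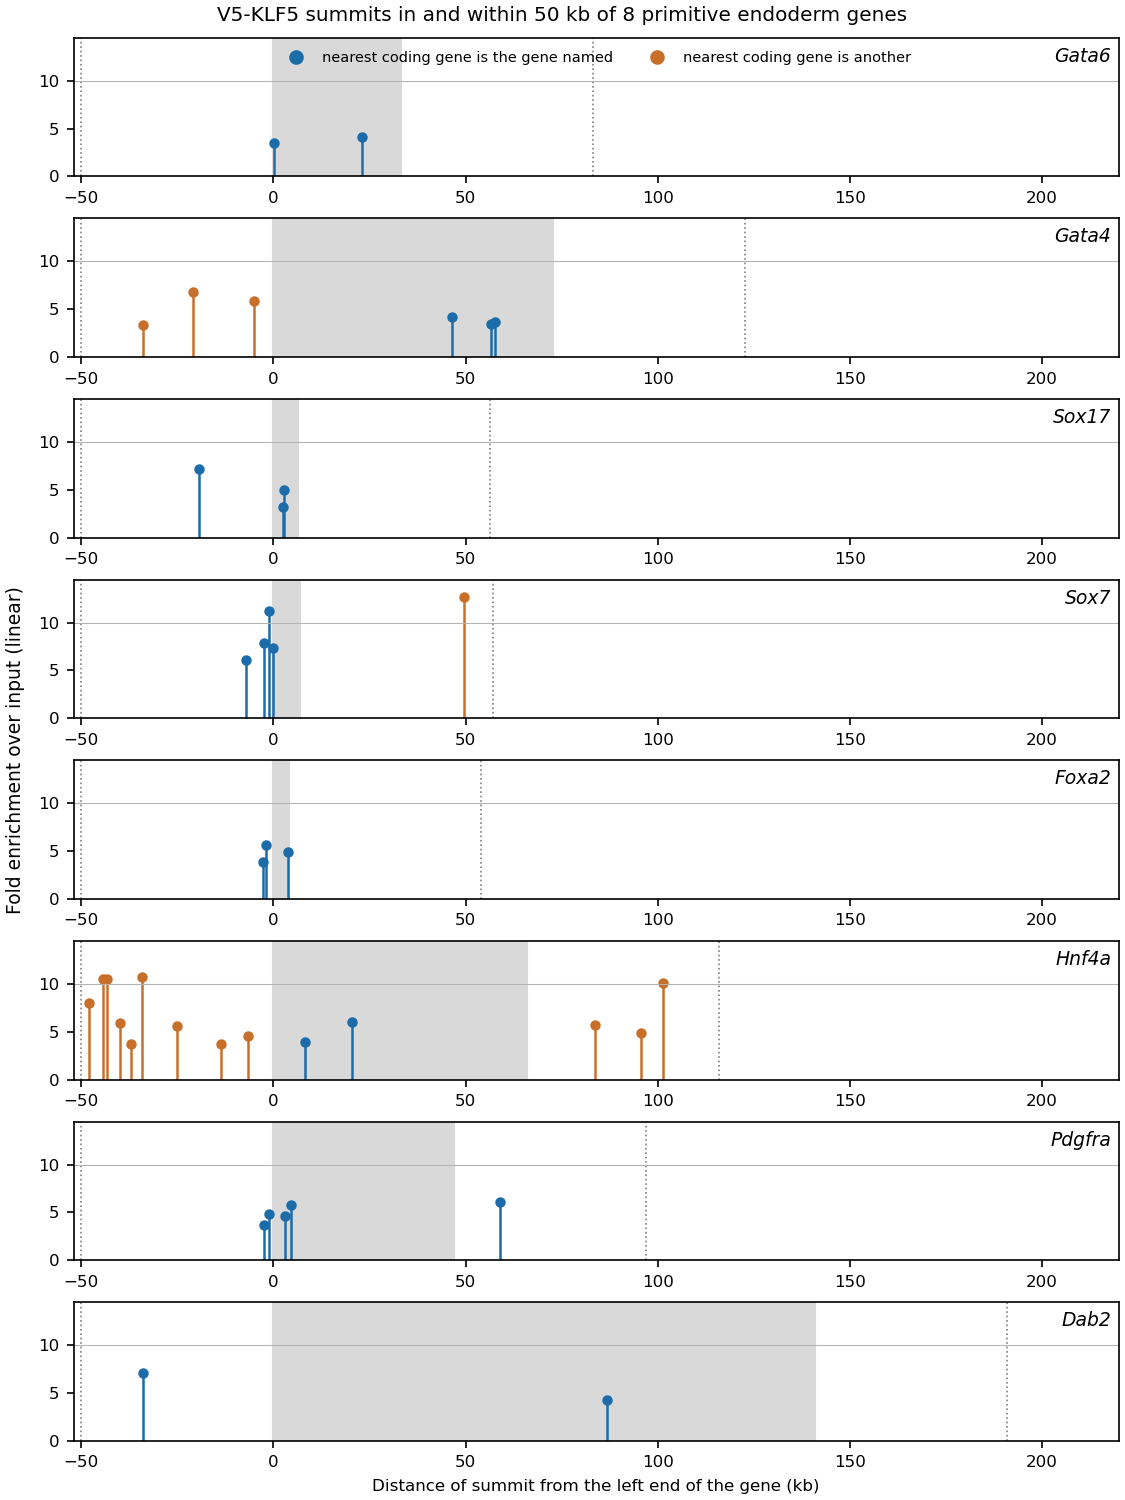
Each vertical line is 1 V5-KLF5 peak, placed by the distance of its summit from the left end of the gene (kb) and as high as its fold enrichment over input (linear scale, 1 library). Grey blocks are the genes, dotted lines the window limits at 50 kb, and the thin horizontal line a fold enrichment of 10. Blue summits have the gene named as their nearest protein-coding gene and orange ones another gene. Hnf4a has 14 summits, 12 of them orange, while Gata6 and Dab2 have 2 each.

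Of the 40 peaks, 13 had their summit inside the gene and 27 outside it. A neighbouring protein-coding gene was nearer to the summit than the member for 16 of them. The median fold enrichment was 5.85 among those 16, and 4.88 among the 24 peaks nearest to a member. The 6 peaks whose fold enrichment reached 10 were split unequally, with 5 nearer to a neighbour (1 in the Sox7 window and 4 in the Hnf4a window) and 1 nearest to a member, Sox7. Windows of neighbouring genes overlap, and those of all protein-coding genes held 115324 pairs of gene and peak, from 45366 peaks. Each peak has only 1 nearest gene, so most such pairs are with a gene that is not the nearest. Peaks nearer to a neighbour are therefore usual under this window rule. The share among peaks of at least 10 is not given. The peaks inside the genes were the weakest group, with a median of 4.15 (range 3.21 to 6.07). Over the 25091 peaks of the list that lay inside any protein-coding gene the median was 5.12.

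Gata6, on chromosome 18, encodes the GATA zinc-finger factor that starts the primitive endoderm programme. It had 2 peaks, both inside the gene and each with a pileup of 16 (interval 9.15 to 26.0). The first had its summit 270 bp inside the left end, was 1213 bp long, and had a fold enrichment of 3.52 on an input background of 3.83. This peak also reached across the end of the gene into the neighbouring lncRNA gene Gata6os. The second, 391 bp long, lay 10158 bp inside the right end with a fold enrichment of 4.15. Of the protein-coding genes with a peak in their window, 97.0% had a strongest peak at least as high as that of Gata6. No summit lay in the 50 kb on either side of the gene, and 71.8% of all protein-coding genes had at least 2 summits in their window.

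Gata4, which encodes a related GATA factor of the primitive endoderm and heart, had 6 peaks on chromosome 14. The gene spans 63198914 to 63271712. Inside it lay 3 weak peaks. The first, at 63245289 to 63245715, had a fold enrichment of 4.14 and a pileup of 19. A pair 722 bp apart, at 63255567 to 63255816 and 63256539 to 63256866, had 3.42 and 3.66 with pileups of 13 and 14. Their summits stood 15054 to 26211 bp from the nearer end of the gene. Their distance from start sites inside the gene was not measured.

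The other Gata4 peaks lay to the left, in neighbouring genes. The strongest of the window, with a fold enrichment of 6.83 and a pileup of 32, was at 63177706 to 63178345 inside Fdft1, a gene of cholesterol synthesis. A further Fdft1 peak at 63164810 to 63165108 had 3.30 on a raised input background of 5.37. A peak at 63193731 to 63194087 with 5.82 lay inside the DNA repair gene Neil2, 215 bp from its end and 4975 bp from Gata4. Counted by nearest gene only, the strongest Gata4 peak was 4.14, close to that of Gata6. The peaks nearest to either GATA gene were thus at or below the first quartile of the list, 4.15.

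Sox17 encodes an SRY-related HMG-box factor of primitive and definitive endoderm and spans 4490928 to 4497426 on chromosome 1. It had 3 peaks, and it was the nearest protein-coding gene for each. The strongest lay at 4471229 to 4471727, with its summit 19427 bp beyond the left end, a pileup of 39 (interval 27.7 to 53.3) and a fold enrichment of 7.14. Inside the gene were a pair of peaks only 80 bp apart. They lay at 4492723 to 4493415 and 4493496 to 4493926 with fold enrichments of 3.21 and 5.00 and pileups of 17 and 27. All 3 stood on the same input background of 4.60, above the genome-wide floor of 3.10. The distal peak was thus the highest at this gene, though its interval (5.13 to 9.70 in fold enrichment) met that of the stronger inner peak (3.36 to 7.19).

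Sox7, a related SOX factor gene of the primitive endoderm and of blood vessels, spans 63943706 to 63950732 on chromosome 14. It had the strongest peak that was nearest to any of the 8 genes. A run of 4 peaks stood just outside its left end, with summits 7113, 2501, 1051 and 177 bp away. In that order their fold enrichments were 6.10, 7.86, 11.2 and 7.32, and their pileups 24, 43, 45 and 29. The highest of them lay at 63942421 to 63943057, and the last, at 63943234 to 63944011, reached across the end of the gene. The summits of the run fell within 6936 bp. All 4 were above the median of the whole list, 5.18.

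At least 4 summits in the gene or within 10 kb, as Sox7, Gata4 and Pdgfra had, were found at 22.1% of all protein-coding genes. Sox7 was also the only one of the 8 with no summit inside the gene. The other 7 had one, and 50.9% of all protein-coding genes did. Its remaining peak, at 63992851 to 63993668, was the strongest of all 40, with a pileup of 58 and a fold enrichment of 12.7 (interval 9.70 to 16.4). Its nearest gene was a neighbour, and its summit lay 918 bp inside an end of the retinal gene Rp1l1 and 42617 bp from Sox7.

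**Figure D2:**
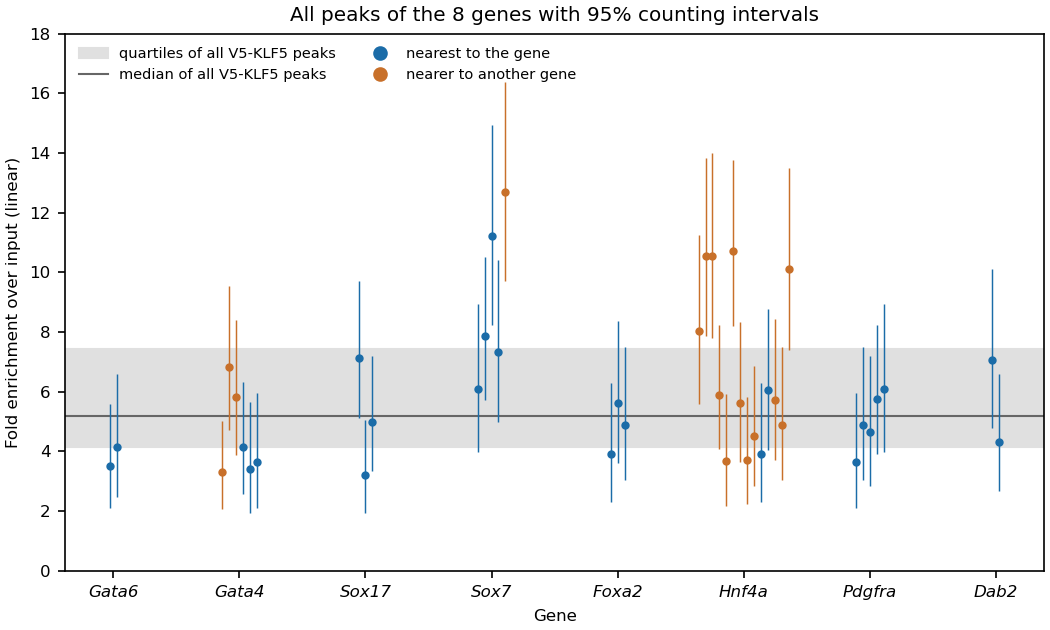
Fold enrichment over input (linear scale) of all 40 peaks, in map order within each gene, with exact Poisson intervals at 95% on the pileup (counting error only, 1 library). The grey band and line give the quartiles (4.15 and 7.45) and the median (5.18) of all V5-KLF5 peaks. The Sox7 peaks lie above the line, those of Gata6 below it.

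Foxa2, which encodes a forkhead factor able to open chromatin in endoderm, is a short gene at 148042877 to 148046969 on chromosome 2. RefSeq places its starts on the minus strand, so its right end is the 5′ end. A peak at 148046462 to 148046883 had its summit 299 bp downstream of the outermost start, with a fold enrichment of 4.88 and a pileup of 19. The same summit was 722 and 1206 bp upstream of the other 2 listed starts, so the peak lay between alternative starts of the gene. Beyond the 3′ end were 2 peaks, at 148040740 to 148041090 and 148039947 to 148040262, with fold enrichments of 5.61 and 3.90. The second of them lay inside the lncRNA gene 9030622O22Rik. All 3 Foxa2 peaks stood on the background floor, where a lower input cannot be seen. Their summits fell within 6.57 kb, and the rest of the window was empty.

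Hnf4a encodes a nuclear receptor of visceral endoderm and liver and spans 163506811 to 163572907 on chromosome 2. Its window held 14 peaks, a count that only 7.85% of all protein-coding genes reached. Few of them were near the gene. Those inside it were at 163514848 to 163515145 and 163527086 to 163527351, with fold enrichments of 3.90 and 6.07, and both also lay inside the overlapping lncRNA gene Hnf4aos. The nearest summit to the outer start was 6560 bp upstream, inside R3hdml, with a fold enrichment of 4.52. The summit nearest to the inner start was 19901 bp upstream of it.

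The other 12 peaks of the Hnf4a window were nearer to other genes. To the left, 9 summits spanned 41434 bp. The strongest of these, at 163472418 to 163472940 with a fold enrichment of 10.7 and a pileup of 59, stood 76 bp outside an end of Fitm2, a gene of lipid droplet formation. Next to it in rank were 163463083 to 163463801 and 163462247 to 163462895, both with 10.6, which lay 187 bp apart and also nearest to Fitm2. To the right, 3 peaks lay nearest to Ttpal, the strongest at 163607711 to 163608432 with 10.1. The large count at Hnf4a was thus made up mostly of peaks nearest to Fitm2, R3hdml, Ttpal and Gdap1l1. Without Hnf4a, the other 7 genes had 26 peaks and a median of 3.

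**Figure D3:**
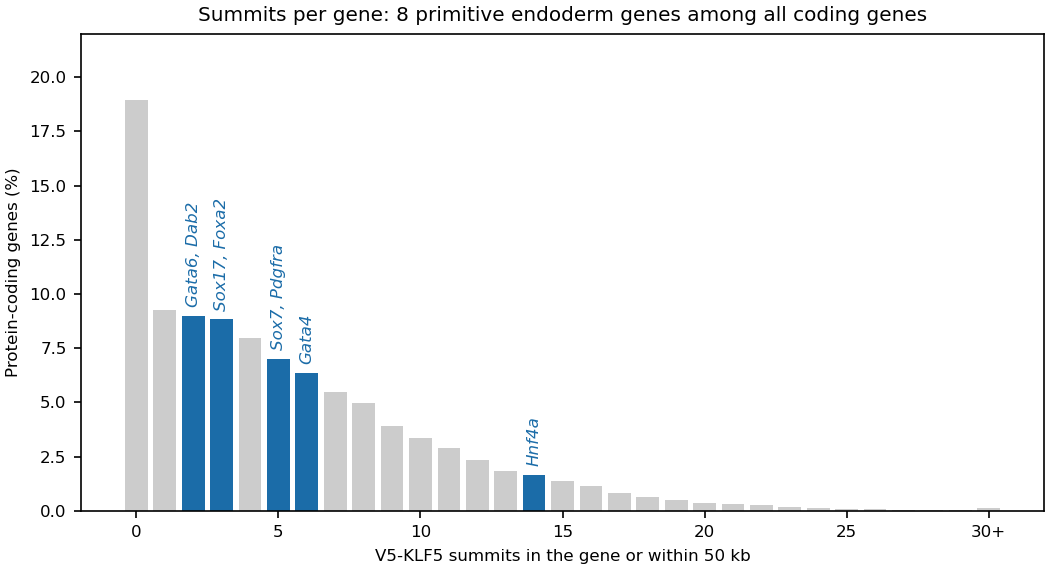
Share of all 21887 protein-coding genes (y axis, %) by the number of V5-KLF5 summits in the gene or within 50 kb (x axis, counts of 30 or more pooled). Blue bars hold the genes named on them. Of the 8 genes, 7 fall at 2 to 6 summits, and Hnf4a stands at 14.

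Pdgfra encodes the alpha receptor for platelet-derived growth factor, which the survival of primitive endoderm cells depends on, and is widely used as a marker of the lineage. It spans 75151322 to 75198206 on chromosome 5 and had 5 peaks, each nearest to it. Around the start site 4 peaks were arranged on both sides. Upstream, summits 3408 and 2102 bp from the start had fold enrichments of 3.66 and 4.88. Downstream, summits 2112 and 3746 bp from it, at 75154152 to 75154709 and 75155771 to 75156592, had 4.64 and 5.77. No peak covered the start itself. The strongest was remote, at 75210042 to 75210453 beyond the 3′ end, 12085 bp outside the gene, with a fold enrichment of 6.10 and a pileup of 24 (interval 15.4 to 35.7). All 5 intervals overlapped one another, so counting error alone does not put these peaks in order.

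Dab2 encodes an endocytic adaptor that sorts receptors at the apical surface of the primitive endoderm. It is the longest of the genes, at 6299788 to 6440715 on chromosome 15, and had the sparsest window, with 2 peaks in 241 kb (0.830 per 100 kb). One peak, at 6386506 to 6386907, covered the inner start site, with its summit 47 bp upstream of it, a fold enrichment of 4.31 and a pileup of 19 (interval 11.4 to 29.7). By the gene's outer ends this peak looks deep, 86913 bp from the left end. The outer start had no peak near it. The nearest was the other Dab2 peak, at 6265629 to 6266115, which lay 33914 bp outside the left end with a fold enrichment of 7.08 and a pileup of 28. Of the 4 genes with listed starts, 2 (Foxa2 and Dab2) had a summit within 1 kb of one, where 51.7% of the 17492 protein-coding genes with listed starts did.

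**Figure D4:**
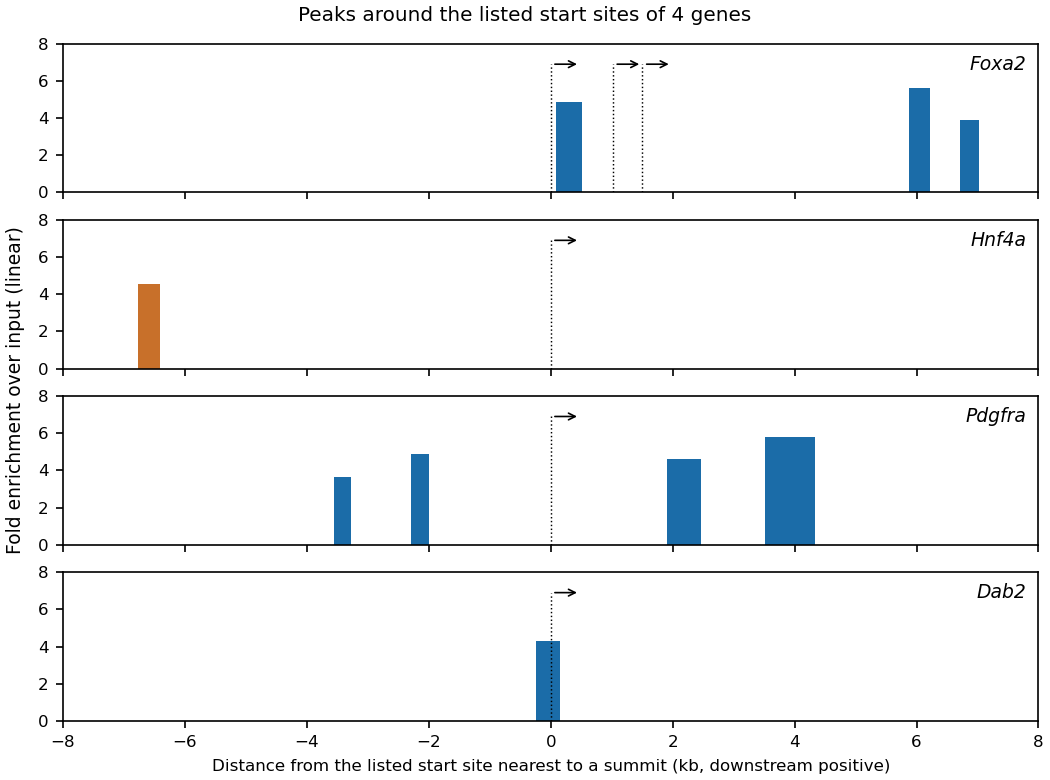
V5-KLF5 peaks as bars, as wide as the peak and as high as its fold enrichment (linear scale), by distance (kb) from the listed start site that is nearest to a summit, with downstream positive. Dotted lines with arrows mark listed starts within 8 kb; the inner Hnf4a start and the outer Dab2 start fall outside this range. The Dab2 peak covers its start and the Foxa2 peak lies between starts. The 4 Pdgfra peaks leave the start free.

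Ordered by their strongest peak, the genes ran from Sox7 (12.7), Hnf4a (10.7), Sox17 (7.14), Dab2 (7.08), Gata4 (6.83), Pdgfra (6.10) and Foxa2 (5.61) to Gata6 (4.15). The interval of each gene overlapped that of its neighbour in this order. Against Sox7, the intervals of Sox17, Gata4, Pdgfra, Foxa2 and Gata6 did not overlap. For Sox17 this was a near miss, since its upper limit and the lower limit of Sox7 both round to 9.70. The Sox7 value here is that of the peak inside Rp1l1, 42617 bp from Sox7. The intervals also make no allowance for picking the highest peak of each gene. When a peak was counted only for its nearest protein-coding gene, Sox7 still led with 11.2, Hnf4a had 6.07, and Gata4 came last with 4.14. In that order only the intervals of Gata6 and Gata4 lay apart from that of Sox7.

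As a group, the 40 peaks had values close to those of the other 45326 in the list. Their median fold enrichment was 5.62, against 5.18 for the others, and their median pileup was 23, against 24. Peaks of at least 10 made up 15.0% of them and 13.0% of the others. Without Hnf4a, the 26 peaks of the other 7 genes had a median of 4.94, and 2 of them (7.69%) reached 10. The input background was at its floor for 17 of the 40 peaks (42.5%), and for 37.2% of the others. Pooled over the windows, the density was 3.40 summits per 100 kb, and 3.56 over the windows of all protein-coding genes. In the gene or within 10 kb, all 8 had a summit, where 70.5% of all protein-coding genes did.

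Genes that act beside these regulators were described in the same way. Of 8 basement membrane and matrix genes that primitive endoderm expresses strongly, all had a summit, where 81.1% of all protein-coding genes did. Of all protein-coding genes, 40.9% reached a fold enrichment of 10, as did 4 of these 8. The median of their strongest peaks was 10.4, against 10.0 over all protein-coding genes with a peak. The highest were the nidogen gene Nid2 with 17.8, the laminin gene Lama1 with 16.8 and Sparc, a matrix glycoprotein gene, with 13.2 at a peak nearer to Atox1. The collagen chaperone gene Serpinh1 was lowest with 7.24. Col4a1 and Col4a2 are neighbours and shared the same strongest peak.

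Of 10 further endoderm genes, most of them for endocytosis or secretion, 9 had a summit, with a median strongest peak of 5.38. The highest were Pth1r, a parathyroid hormone receptor gene, with 13.0 and the cubilin partner gene Amn with 9.03, both at peaks nearer to other genes (Ccdc12 and Cdc42bpb), followed by the endocytic receptor gene Lrp2 with 7.81. Cited1, on chromosome X, was lowest with 3.90, and the alpha-fetoprotein gene Afp had none. The shares of these lists rest on few genes, and 81.1% of all protein-coding genes had a summit in this window.

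The FGF genes that instruct the lineage had a summit in 4 of 4 cases, where 81.1% of all protein-coding genes did. Fgf4, the ligand gene, had 13 peaks, the strongest inside the gene at 13.6. Fgfr1 had 11.2 at a peak nearer to Letm2, the adaptor gene Grb2 had 11.0, and Fgfr2 had 6.79. Among 4 further factors, Nanog, the epiblast gene that opposes Gata6, led with 23.2, followed by Sall4 with 17.9 and Foxq1 with 5.86. Foxa1, a paralogue of Foxa2, was lowest with 4.15. The gap between the pair that oppose each other in the blastocyst was wide in this library. Gata6 had 2 summits and a strongest peak of 4.15, and Nanog had 12 and 23.2.

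Beside the trophoblast and pluripotency genes listed here, the 8 regulators had lower values. Their median strongest peak of 6.95 compares with 11.9 for 6 trophoblast factor genes (Cdx2, Eomes, Elf5, Gata3, Tfap2a and Tfap2c) and 23.2 for the pluripotency genes Pou5f1, Sox2 and Nanog. Their pooled density of 3.40 summits per 100 kb compares with 8.32 for the trophoblast genes and 10.8 for the pluripotency genes. The ranges met, since Sox7 (12.7) stood above Cdx2 (6.83) and Sox2 (8.07). The Sox7 and Cdx2 values here are those of peaks nearer to other genes, Rp1l1 and Flt3. Gata3, the GATA gene of trophoblast, had 5 peaks and a strongest one of 11.3, above both Gata6 and Gata4. These differences were not tested, because genes are not replicates and the lists were chosen with earlier results known. The trophoblast and pluripotency lists were also chosen after the peaks had been seen.

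**Figure D5:**
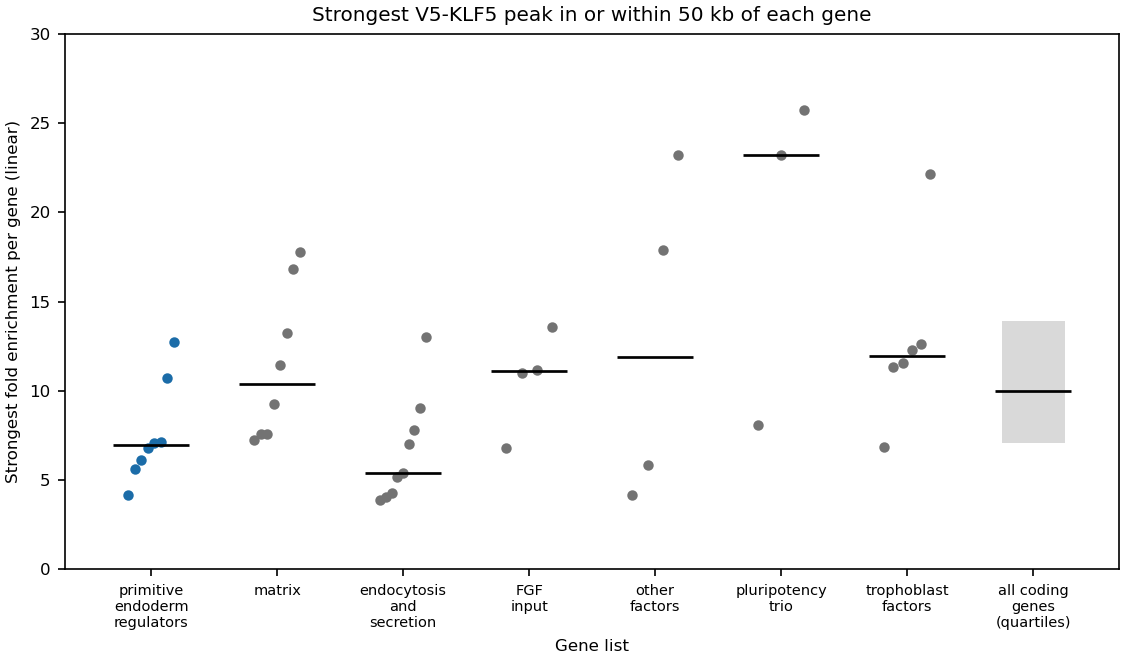
Strongest V5-KLF5 fold enrichment (linear scale) in or within 50 kb of each gene, 1 point per gene with a peak, by gene list; black bars are medians. The grey box gives the quartiles (7.08 and 13.9) and its bar the median (10.0) of all protein-coding genes with a peak. The primitive endoderm regulators, in blue, lie between 4.15 and 12.7.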

How the data were processed

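Per the file headers, the authors ran MACS2 2.1.0.20140616 once for each immunoprecipitate without pooling, with input DNA of the same cells as background. It extended 51 bp tags to 250 bp, kept 1 tag at a position, scaled the larger library down and called peaks at a q-value of 0.05. The mm10 build and Bowtie 0.12.8 are named in the submitters' processing notes. The handling of reads that map to several places, which could remove or add peaks at repeated sequence, is not stated in the sources. Deposited with every peak were the summit, the pileup signal, the fold enrichment ratio, and the −log10 of the p-value and of the q-value. They are the authors' values and only describe or rank peaks of that list.

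The V5 library was smaller than its input, so its pileup is a whole number of tags. The input background was recovered from pileup and fold enrichment, and its lowest value was 3.10. Gene positions, start sites and promoter sequences came from RefSeq (GRCm38.p6), 1-based. All 8 symbols matched the gene table and 4 the promoter table. The gene table gives no strand. A peak was given to every gene whose window held its summit. By the rule for named genes, all members are named, with coordinates or distances for their strongest peaks, and of each further list the 3 strongest, the weakest and any gene without a peak. After the peaks had been seen, 2 genes were left out of those lists and their counts, and are not reported here. Assignment of peaks to genes was tested on simulated data. Members and lists were chosen with earlier results of these data known, and the pluripotency and trophoblast lists after the peaks had been seen. Alternatives changed the window, the peak threshold and the assignment of peaks. Python 3.11.15, numpy 2.4.6, pandas 2.3.3, scipy 1.17.1 and matplotlib 3.10.9 were used. With 1 library per group, no comparison was tested.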

Additional observations from a re-analysis of the deposited data

How the results depend on the processing

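The 40 peaks became 23 with a window of 10 kb, 61 with 100 kb, 21 at a fold enrichment of at least 5, 6 at 10 or more, 21 at a −log10 q of at least 10, and 24 when each peak counted only for its nearest protein-coding gene. All 8 genes kept a peak in both other windows and by nearest gene. At a fold enrichment of at least 5, 7 had one (Gata6 had none), at a −log10 q of at least 10, 6 (Gata6 and Foxa2 had none), and at a fold enrichment of 10 or more, 2 (Sox7 and Hnf4a). Of all protein-coding genes, 70.5% had a peak in 10 kb, 85.9% within 100 kb and 64.8% by nearest gene. At a fold enrichment of at least 5 the share was 73.6%, by the q limit 71.5%, and at 10 or more 40.9%. The median strongest fold enrichment over the genes with a peak was 5.69 in 10 kb, 8.01 within 100 kb, 7.08 at 5 or more, 11.7 at 10 or more, 7.11 by the q limit and 6.08 by nearest gene. In each of these settings the median over all protein-coding genes was higher (7.71, 11.7, 10.5, 13.9, 10.7 and 7.19 in the same order). Counting a peak by any base in the window changed none of the 3 results. No paired analysis was possible because each group has 1 library. Weak peaks such as those of Gata6 rest on 16 tags at the summit in 1 library.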

Other observations

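Between 50 and 100 kb from the genes lay 21 further summits, at 5 of the 8. Pdgfra had 7 of these, the strongest at 75084856 to 75085678 with a fold enrichment of 8.95, above any peak within 50 kb of the gene, and it was nearest to the homeobox gene Gsx2. Sox17 had 2, of which the one at 4422403 to 4422908 reached 10.0, nearest to the photoreceptor gene Rp1, 68246 bp from Sox17. Hnf4a had 7, up to 12.1 near Serinc3, Gata4 had 4, up to 6.07 near the protease gene Ctsb, and Sox7 had 1 of 8.90 near Pinx1. Gata6, Foxa2 and Dab2 had none in this outer zone. The share of all protein-coding genes with a summit in this zone is not given, so these counts are a description only. The summits just inside and just outside the limit at Hnf4a stood 47948 and 52121 bp from it, with fold enrichments of 8.05 and 7.51.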
